A study of Mus musculus with 2 samples.

Results

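The intermediate filament and nuclear lamina genes, 10 in all, were examined in mouse embryonic stem (ES) cells of the line E14TG2a: the cytoplasmic intermediate filament genes Vim, Nes, Krt7, Krt8, Krt18 and Krt19, the lamin genes Lmna, Lmnb1 and Lmnb2, and Lbr, the lamin B receptor. They were chosen by symbol, and all 10 had a row among the 28592 genes of the table. The series has 1 group with 2 replicates, E14TG2a cells held in the naive ground state in 2i/LIF medium, with no other genotype, treatment or time. This medium carries inhibitors of MEK and GSK3 together with leukaemia inhibitory factor. Total RNA was depleted of ribosomal RNA and sequenced in stranded libraries, and each gene has 1 FPKM value (fragments scaled to transcript length and to the total of mapped fragments) per replicate. FPKM is scaled by length, which lets levels of different genes be set side by side. Unspliced transcripts in total RNA and reads that match several places can still change these levels. Nothing in the labels ties the replicates to separate cultures, so their spread may be only technical, and all values come from 1 cell line.

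Intermediate filaments are rope-like polymers. Vimentin (Vim) is the type III filament of mesenchymal and many cultured cells, and nestin (Nes) is a type IV protein of neural progenitors that polymerises together with vimentin. Keratins form obligate pairs of a type I chain (Krt18, Krt19) with a type II chain (Krt7, Krt8), and Krt8 with Krt18 is the first keratin pair of the mouse embryo, typical of the trophectoderm. Lamins line the inner nuclear membrane: Lmnb1 and Lmnb2 encode the B-type lamins found in nearly all cells, and Lmna encodes lamins A and C, which build up as cells differentiate. Lbr spans the inner nuclear membrane, binds B-type lamins and heterochromatin protein 1, and also carries a sterol reductase domain.

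The labelled cell type was checked against 10 markers of pluripotent cells. All 10 were detected, which here means an FPKM of at least 1 in both replicates, with Pou5f1 at 1005 and 947 FPKM and Nanog at 267 and 269 FPKM in replicates 1 and 2. Of all genes, 11253 were detected, or 39.4%. The FPKM totals were 946498 (replicate 1) and 928174 (replicate 2). No other condition exists, and a sign-flip permutation test over 2 libraries cannot give a two-sided p below 0.5, so levels and ratios are given with their spread and without a test.

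Of the 10 genes 9 were detected, where 39.4% of all genes were. Vim, Lbr and the B-type lamins were abundant, Lmna, Krt8 and Nes were of middle level, Krt18 and Krt19 stood just over the limit, and Krt7 was below it. The median of the 10 mean levels was 15.3 FPKM (16.0 and 14.7 in replicates 1 and 2), against 0.233 FPKM for all genes and 12.7 FPKM for all detected genes. With a limit of 0.1 FPKM all 10 passed, where 52.9% of all genes did, and with a limit of 5 FPKM 7 passed, where 28.1% of all genes did.

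**Figure D1:**
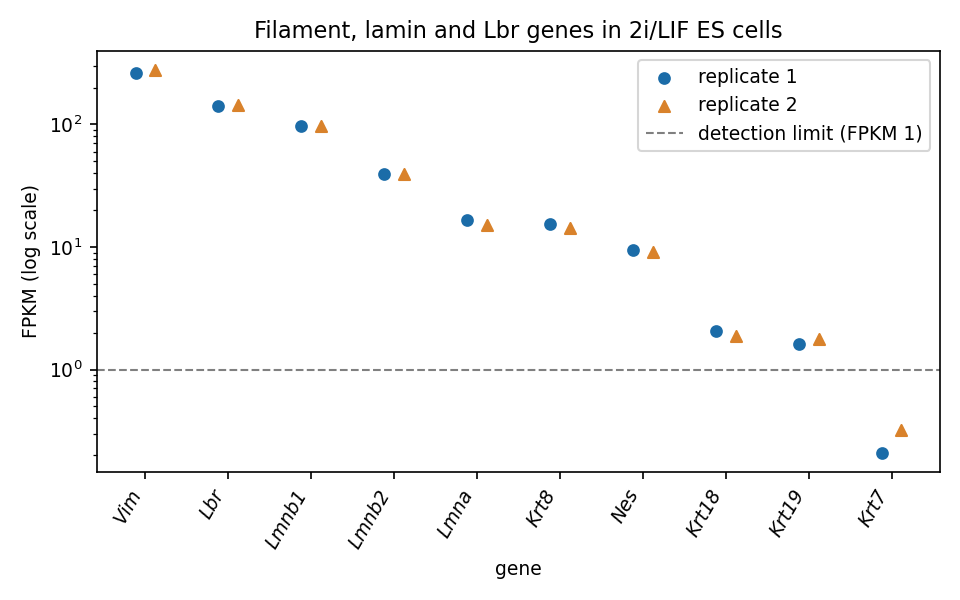
FPKM of the 10 genes on a log axis, one circle for replicate 1 and one triangle for replicate 2, with the genes ordered by mean level and the detection limit of 1 FPKM dashed. Vim stands at the top with 261 and 279 FPKM, and Krt7, with 0.209 and 0.321 FPKM, is the only gene under the line.

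Ordered by mean FPKM, the genes ran Vim, Lbr, Lmnb1, Lmnb2, Lmna, Krt8, Nes, Krt18, Krt19 and Krt7. Of the 9 pairs of neighbours in this order only Lmna and Krt8 overlapped in their replicate values. Krt18 and Krt19 did not overlap, with means 1.16-fold apart and replicates of each gene 1.08-fold apart. The other 7 steps ranged from 1.46-fold, between Lbr and Lmnb1, to 6.39-fold, between Krt19 and Krt7.

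The replicates gave nearly the same values for Lbr and the B-type lamins, and Krt7 had the widest spread. The log2 ratio of replicate 2 to replicate 1 was 0.00 for Lmnb1, Lmnb2 and Lbr, where genes at 20 to 100 FPKM had a median absolute ratio of 0.07 and genes at 100 or more one of 0.06. Genes at 5 to 20 FPKM had a median absolute ratio of 0.09. The log2 ratio was 0.10 for Vim, -0.13 for Lmna, -0.11 for Krt8 and -0.05 for Nes. Vim, Lmna and Krt8 thus differed more than the median gene of their level. For Krt18 and Krt19 it was -0.11 and 0.12, where genes at 1 to 5 FPKM had a median absolute ratio of 0.17. For Krt7 it was 0.62, next to a median absolute ratio of 0.54 among genes under 1 FPKM. Krt7 alone of the 10 differed by over 1.2-fold between replicates, as did 34.3% of all genes above 0 in both. Of the 7 genes at a mean of at least 5 FPKM none did, against 6.49% of all genes at that level.

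**Figure D2:**
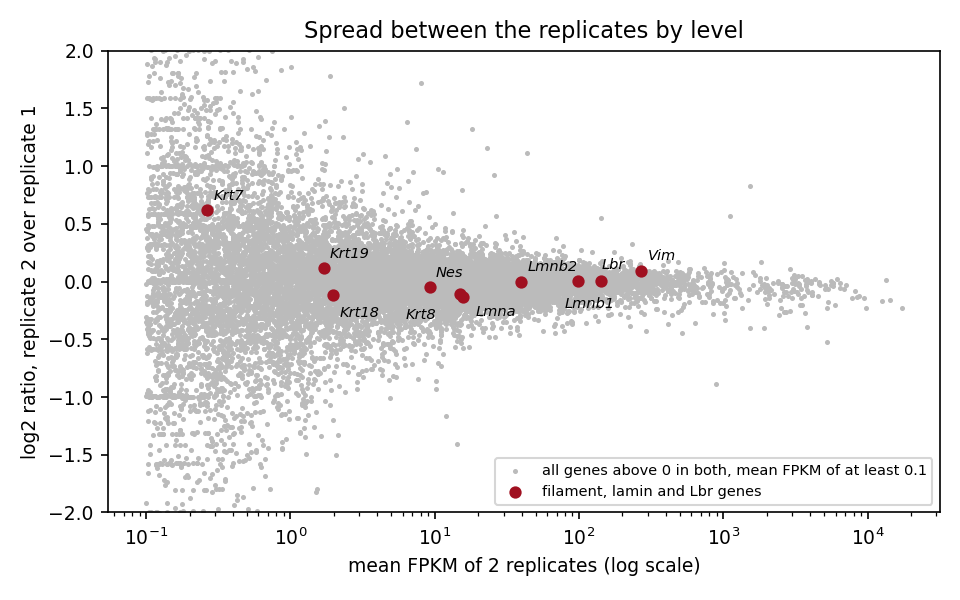
Log2 ratio of replicate 2 over replicate 1 against mean FPKM (log axis), for 15684 genes above 0 in both replicates at a mean of at least 0.1 FPKM (grey, 219 of them beyond the axis) and for the 10 filament, lamin and Lbr genes (red). Lmnb1, Lmnb2 and Lbr lie at 0.00, and Krt7 lies highest of the red points at 0.62, where the grey cloud is wide.

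The DNA just upstream of 5 of these genes is shown because it sets the highest pair, Vim and Lbr, beside the keratin pair Krt8 and Krt18, which lie next to each other at unequal levels, and beside Krt7, the gene below detection. Each run is the 250 bases before the RefSeq start on GRCm38.p6, read along the gene, with CG dinucleotides (CpG, the site of DNA methylation and the mark of CpG island promoters) in capitals. The windows are Vim at chr2:13574061-13574310 (plus strand), Lbr at chr1:181842402-181842651 (minus), Krt8 at chr15:102004343-102004592 (minus), Krt18 at chr15:102027966-102028215 (plus) and Krt7 at chr15:101412153-101412402 (plus).
Vim: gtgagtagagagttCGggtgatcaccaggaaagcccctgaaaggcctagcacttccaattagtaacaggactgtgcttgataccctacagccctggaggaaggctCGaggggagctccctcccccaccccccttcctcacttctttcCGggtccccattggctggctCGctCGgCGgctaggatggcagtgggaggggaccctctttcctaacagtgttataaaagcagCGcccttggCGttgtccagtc
Lbr: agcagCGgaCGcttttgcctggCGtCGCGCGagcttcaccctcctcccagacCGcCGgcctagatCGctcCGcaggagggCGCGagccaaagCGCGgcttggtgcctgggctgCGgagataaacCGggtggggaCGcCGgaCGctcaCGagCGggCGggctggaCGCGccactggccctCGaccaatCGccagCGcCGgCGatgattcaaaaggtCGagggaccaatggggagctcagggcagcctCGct
Krt8: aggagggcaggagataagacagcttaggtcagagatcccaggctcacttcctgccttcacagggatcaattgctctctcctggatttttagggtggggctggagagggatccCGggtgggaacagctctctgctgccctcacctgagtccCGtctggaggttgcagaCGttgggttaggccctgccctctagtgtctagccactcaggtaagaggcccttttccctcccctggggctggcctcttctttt
Krt18: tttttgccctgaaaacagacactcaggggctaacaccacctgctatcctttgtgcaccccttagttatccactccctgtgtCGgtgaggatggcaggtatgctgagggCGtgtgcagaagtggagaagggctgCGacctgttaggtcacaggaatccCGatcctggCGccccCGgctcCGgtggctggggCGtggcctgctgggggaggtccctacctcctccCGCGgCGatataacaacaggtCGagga
Krt7: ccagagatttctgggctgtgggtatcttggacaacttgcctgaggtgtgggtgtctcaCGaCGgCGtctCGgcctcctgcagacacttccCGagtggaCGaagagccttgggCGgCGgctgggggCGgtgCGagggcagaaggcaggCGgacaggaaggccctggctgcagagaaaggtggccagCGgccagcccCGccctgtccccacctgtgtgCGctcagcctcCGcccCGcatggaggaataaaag
Lbr had 31 CpG in its window, Krt7 16, Krt18 12, Vim 8 and Krt8 3. Among 18819 genes of the table with a window, the median was 9, with 16 for the 8624 detected and 4 for the 10195 not detected. Within the shown set the order by CpG was not the order by level: Krt7, below detection, had the CpG count of a typical detected gene, and Krt8, at 14.9 FPKM, had fewer than the median gene that was not detected.

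A search on both strands for 4 short motifs gave a further description of these windows. The letters TATAAA, the TATA box, began 32 bases before the start of Vim and were found wholly upstream of none of the other 7 genes with a window, while 11.7% of all windows held them. At Krt8 a match on each strand, beginning 3 and 1 bases before the start, ran past it. CCAAT was found at 196 and 94 bases before the start of Vim and at 68 and 28 bases before that of Lbr, and in 35.6% of all windows. GGGCGG, the GC box, occurred 4 times upstream of Krt7, at 141, 128, 56 and 24 bases before its start. Lbr held it once, 98 bases before the start, and 41.8% of all windows held it. TGANTCA was found once, 48 bases before the start of Lbr, and in 6.30% of all windows. Neither Krt8 nor Krt18 held any of the 4 wholly upstream, and no 2 matches wholly upstream overlapped. RefSeq gave windows for 8 of the 10 genes, all except Krt19 and Lmnb1. Of the windows not shown, Nes had 15 CpG and 2 GC boxes (73 and 62 bases before the start) and Lmnb2 had 14 CpG and a GC box 7 bases before the start. The first Lmna window, at a start inside the RefSeq span of the gene, had 1 CpG and a GC box 52 bases before that start. A second Lmna window had 4 CpG and CCAAT 131 bases before its start. A second Lmnb2 window had 5 CpG and none of the 4 motifs.

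Vim (ENSMUSG00000026728.8, chromosome 2, 13574311 to 13582826) was the most abundant of the 10. It stood at 261 FPKM in replicate 1 and 279 FPKM in replicate 2, a mean of 269.99 ± 12.6 FPKM (SD, n = 2) and rank 401 of 28592 genes. Both values were close to those of Nanog. Vim made up 80.3 ± 1.10% of the FPKM summed over 65 cytoplasmic filament genes (79.5% and 81.0% in replicates 1 and 2). Of the 4 type III genes 2 were detected, not far from the 39.4% of all genes. These were Vim, and Des, the filament of muscle, at 3.59 ± 0.302 FPKM. Gfap, the astrocyte filament, was lowest, listed at 0 in replicate 1 and at 0.0106 FPKM in replicate 2.

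Vimentin RNA is also abundant in fibroblasts, and most markers of fibroblasts differed between the replicates. Their sum over 10 genes was 0.766 FPKM in replicate 1 and 4.02 FPKM in replicate 2. Of the 10, 8 were higher in replicate 2, while 10541 of all 28592 genes were higher in replicate 2 and 10041 in replicate 1. The other 2 were Twist1, at 0.350 FPKM in both replicates, and Lum, at 0.0139 and 0 FPKM. The collagen genes Col1a1 and Col1a2 stood at 0.0136 and 0.0101 FPKM in replicate 1 and at 0.552 and 0.917 FPKM in replicate 2. Dcn, Postn and Acta2 were listed at 0 in replicate 1. None of the 10 reached 1 FPKM in both replicates, where 39.4% of all genes did. In replicate 1 Vim was at 261 FPKM and the 10 markers summed to 0.766 FPKM. The part of such RNA in the Vim level, and in the Vim difference between replicates, was not tested.

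Nes (ENSMUSG00000004891.15, chromosome 3, 87971093 to 87980451) was detected at a far lower level than its filament partner Vim. It had 9.40 FPKM in replicate 1 and 9.08 FPKM in replicate 2 (9.24 ± 0.224), and its replicate values lay close together. The log2 ratio of Nes to Vim was -4.87 ± 0.10, so Vim exceeded Nes 29.2-fold (27.8-fold and 30.7-fold in replicates 1 and 2). Of 6 type IV genes 3 were detected, not far from the 39.4% of all genes. The neurofilament light chain gene Nefl, at 8.81 and 10.3 FPKM (9.56 ± 1.06), overlapped Nes, and the heavy chain gene Nefh stood at 1.13 ± 0.0454 FPKM. Synm, which encodes synemin, was lowest at 0.0880 ± 0.0275 FPKM. Nes made up 42.9 ± 3.25% of the summed type IV FPKM.

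Markers of neural progenitors other than Nes were mostly at or near 0. Of 10 genes 2 were detected, where 39.4% of all genes were. These were the neuronal tubulin Tubb3 at 31.2 FPKM and the RNA-binding protein gene Msi1 at 2.34 and 3.38 FPKM. The list sum was 34.5 FPKM in each replicate. The neural transcription factor Sox1 stood at 0.118 and 0.174 FPKM and Pax6 at 0.207 and 0.0612 FPKM. Fabp7 was listed at 0 in both replicates. In bulk RNA, a low level in every cell and a high level in few cells cannot be told apart, and this holds for all the genes here.

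The keratins were a family of few expressed genes. Of 53 keratin genes measured, 6 were detected and 36 were listed at 0 in both replicates. Of all 28592 genes, 8009 were listed at 0 in both. Of 25 type II genes 1 was detected, and of 28 type I genes 5, shares below the 39.4% of all genes.

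Krt8 (ENSMUSG00000049382.9, chromosome 15, 101996711 to 102004342) was the only type II keratin detected. It had 15.4 FPKM in replicate 1 and 14.3 FPKM in replicate 2 (14.9 ± 0.781) and held 97.9 ± 0.425% of the summed type II FPKM. Krt7 (ENSMUSG00000023039.15, chromosome 15, 101412403 to 101427806), a type II keratin of simple epithelia such as ducts, was the next highest of this type at 0.209 and 0.321 FPKM. The log2 ratio of Krt7 to Krt8 was -5.84 ± 0.51. Krt8 thus exceeded Krt7 by 73.7-fold in replicate 1 and 44.6-fold in replicate 2, a factor that rests on the small values of Krt7. The other type II genes were under 0.1 FPKM, and the epidermal Krt1 was among 21 listed at 0 in both.

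Krt18 (ENSMUSG00000023043.6, chromosome 15, 102028216 to 102032026), the type I partner of Krt8, had 2.05 FPKM in replicate 1 and 1.89 FPKM in replicate 2 (1.97 ± 0.108). Krt8 was 7.53-fold and 7.56-fold above Krt18 in replicates 1 and 2, a log2 ratio of 2.92 ± 0.0036. The ratio of this pair moved far less between replicates than the level of either gene, since both were about 1.08-fold higher in replicate 1. With 2 replicates, whether Krt8 and Krt18 vary together was not tested. Krt19 (ENSMUSG00000020911.13, chromosome 11, 100140810 to 100145926), a small type I keratin of simple epithelia, had 1.63 and 1.76 FPKM (1.69 ± 0.0968). The log2 ratio of Krt19 to Krt18 was -0.22 ± 0.16.

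The type I keratin with the highest level was none of these. Krt42 had 19.1 and 16.8 FPKM (17.9 ± 1.64) and accounted for 71.5 ± 1.92% of the summed type I FPKM, where Krt18 and Krt19 together accounted for 14.6 ± 0.899%. Krt13 and Krt17 followed at 1.16 ± 0.0119 and 1.15 ± 0.0689 FPKM, and Krt9, a keratin of footpad skin, was among 15 listed at 0 in both. The sum of Krt18 and Krt19 was 0.242 ± 0.0105 times that of Krt7 and Krt8. Over all measured keratins the type I sum was 1.65 ± 0.0271 times the type II sum, and without Krt42 it was 0.471 ± 0.0240 times. Krt42 was 1.21 ± 0.0469 times as high as Krt8, and its replicate values did not overlap those of Krt8.

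**Figure D3:**
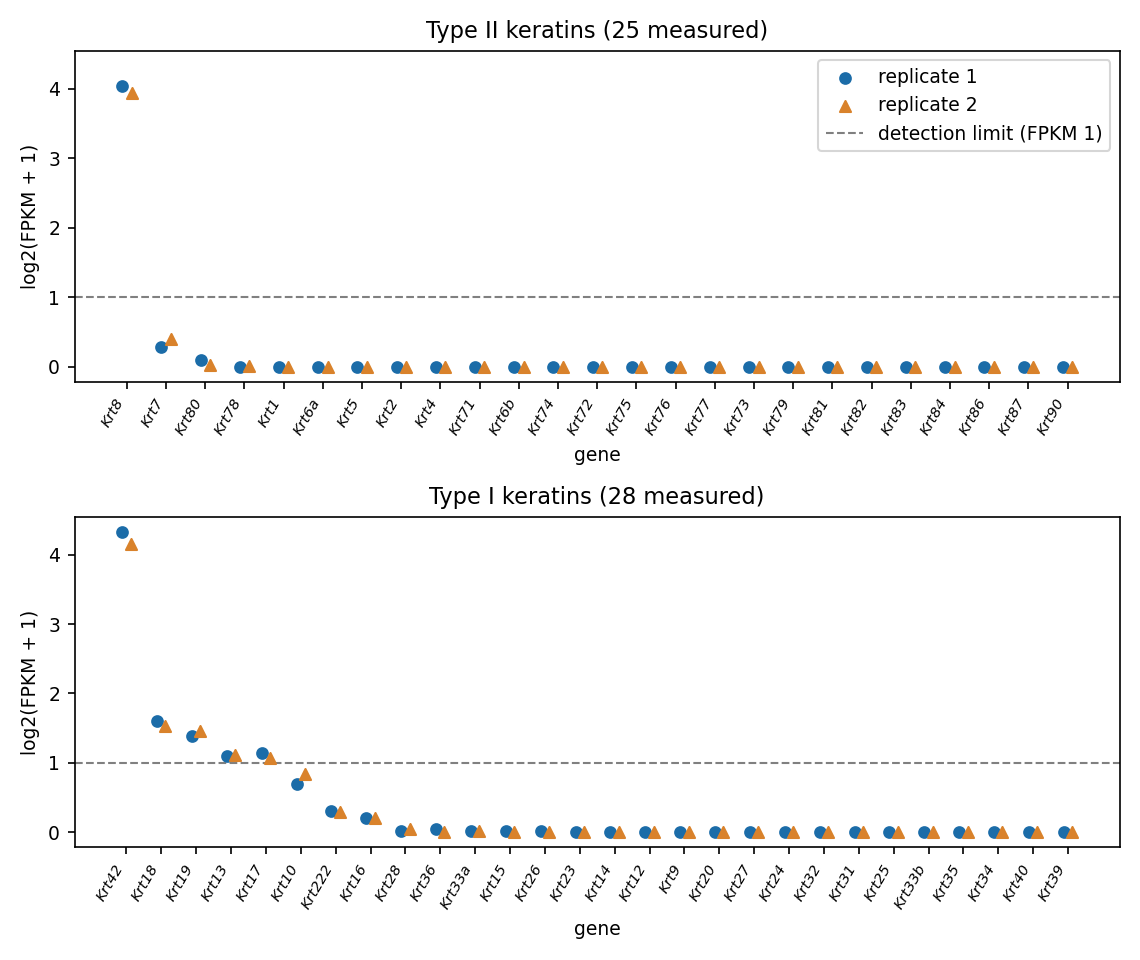
Levels of the 25 type II (top) and 28 type I (bottom) keratin genes measured, as log2(FPKM + 1) in replicate 1 (circles) and replicate 2 (triangles), ordered by mean level, with the detection limit dashed. Krt8 stands alone among type II genes, and Krt42 stands above Krt18 and Krt19 among type I genes.

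By position, the detected keratins were few in each cluster. On chromosome 15 lay 26 of the measured keratins, all of type II except Krt18, and the 2 detected, Krt8 and Krt18, were neighbours at its far end with 23873 bases between their spans. On chromosome 11 lay 27 type I genes, of which 4 were detected, Krt42, Krt19, Krt13 and Krt17. Krt78, whose span ends 86 bases from that of Krt8, was listed at 0 in replicate 1 and at 0.00803 FPKM in replicate 2. RefSeq lists a Krt8 pseudogene on chromosome 7, and keratins resemble each other. How reads matching several places were divided is not given in the sources used here, so keratin levels are uncertain to that extent. No RefSeq span overlapped that of any of the 10 genes.

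Markers of trophectoderm, where Krt8 and Krt18 are abundant, were mostly low. Of 10 genes 2 were detected, where 39.4% of all genes were. These were Tfap2c, which naive ES cells also express, at 8.82 and 8.39 FPKM, and Cdx2 at 1.13 and 1.46 FPKM. Elf5 and Gata3 stood at 0.0387 and 0 FPKM in replicate 1 and at 0.0515 and 0.0172 FPKM in replicate 2, and Tpbpa and Plac1 were listed at 0 in both. The list summed to 10.92 FPKM in replicate 1 and 10.97 FPKM in replicate 2. No marker of primitive endoderm, another early epithelium, was detected among 10, and their sum was 0.686 and 1.03 FPKM. The part of such cells in the keratin levels was not tested.

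Of 17 genes for plakins and desmosome proteins, which anchor filaments, 9 were detected, with a median of 1.55 FPKM. That share is not far from the 39.4% of all genes detected. The cytoskeletal linkers Macf1 and Dst led at 63.3 ± 2.80 and 34.3 ± 3.34 FPKM, followed by plakoglobin (Jup) at 29.3 ± 0.211 and Pkp4 at 24.3 ± 0.407 FPKM. Plec, the plakin that ties vimentin and keratin filaments to other structures, was at 3.49 ± 0.566 FPKM, and Dsp, which anchors keratins at desmosomes, at 1.55 ± 0.186 FPKM. Plec and Dsp were named for their link to these filaments after their values were seen. Pkp1 was listed at 0, as were 3 desmosomal cadherin genes.

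The lamins were led by the B-type genes. Lmnb1 (ENSMUSG00000024590.8, chromosome 18, 56707813 to 56753424) had 97.7 and 97.9 FPKM (97.8 ± 0.164), Lmnb2 (ENSMUSG00000062075.12, chromosome 10, 80901363 to 80918245) had 39.7 and 39.8 FPKM (39.8 ± 0.00771), and Lmna (ENSMUSG00000028063.14, chromosome 3, 88481148 to 88509932) had 16.5 and 15.1 FPKM (15.8 ± 1.03). The values of the 3 genes did not overlap in any replicate. Lmnb1 made up 63.8 ± 0.462% of the summed lamin FPKM, Lmnb2 25.9 ± 0.149% and Lmna 10.3 ± 0.612%. The table has 1 value per gene, so lamins A and C, which come from the same gene by splicing, are not told apart.

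Lmna was thus detected in these cells, at a level above 55.8% of detected genes, but below both B-type genes. The log2 ratio of Lmna to Lmnb1 was -2.63 ± 0.10, with Lmnb1 5.92-fold and 6.50-fold higher than Lmna in replicates 1 and 2. The log2 ratio of Lmnb2 to Lmnb1 was -1.30 ± 0.0021. Lmnb1 ranked above 90.4% of detected genes, and Lmnb2 above 77.5%.

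Lbr (ENSMUSG00000004880.10, chromosome 1, 181815315 to 181842401) was the most abundant of the nuclear envelope genes among the 10. It had 142.8 FPKM in replicate 1 and 143.0 FPKM in replicate 2 (142.9 ± 0.172), above 93.3% of detected genes. Lbr was 8.65-fold and 9.50-fold above Lmna in replicates 1 and 2 (log2 ratio 3.18 ± 0.0956), and 1.46-fold above Lmnb1 in both (0.55 ± 0.0007). Lbr and Lmna are known as alternative tethers of heterochromatin at the nuclear periphery in mouse cells.

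**Figure D4:**
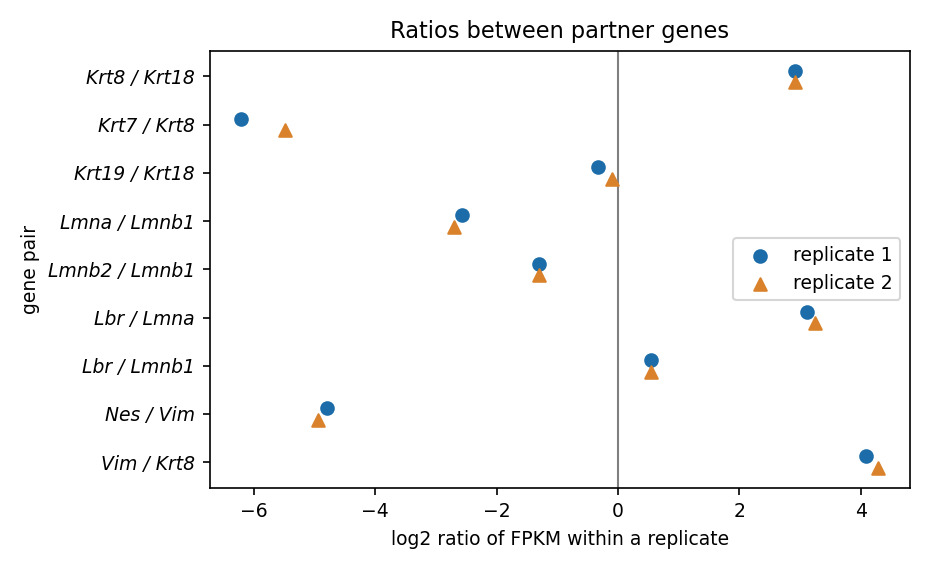
Log2 ratio of FPKM between pairs of the 10 genes, computed within replicate 1 (circles) and replicate 2 (triangles). The ratios of Krt8 to Krt18 (2.92), Lmnb2 to Lmnb1 (-1.30) and Lbr to Lmnb1 (0.55) nearly coincide between replicates, and that of Krt7 to Krt8 spreads most (-6.20 and -5.48).

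Enzymes that mature lamins were all detected, 5 of 5, where 39.4% of all genes were, with a median of 16.2 FPKM. The farnesyltransferase subunits Fnta and Fntb stood at 74.6 ± 1.94 and 13.3 ± 0.536 FPKM. Rce1, which trims the farnesylated end, was at 19.4 ± 0.0818 FPKM, Zmpste24, the protease that releases mature lamin A, at 16.2 ± 0.439 FPKM, and the methyltransferase Icmt at 14.4 ± 0.915 FPKM. Apart from Fnta, their means ran from 13.3 to 19.4 FPKM, on both sides of the 15.8 FPKM of Lmna.

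Partners of the lamina and of Lbr were expressed throughout, with 11 of 11 detected, where 39.4% of all genes were. Their median was 38.8 FPKM. The heterochromatin protein 1 genes Cbx3 and Cbx1 led at 287 ± 11.8 and 151.5 ± 1.76 FPKM, and Cbx5 stood at 100.2 ± 9.11 FPKM. Banf1, which bridges DNA and LEM-domain proteins, was at 140.6 ± 9.47 FPKM and Tmpo, which encodes the LAP2 proteins, at 110.9 ± 1.01 FPKM. Emd, which encodes emerin, was at 38.8 ± 0.528 FPKM, and Lemd1 was lowest at 1.66 ± 0.0107 FPKM. Cbx5 and Emd lie outside the naming rule and were added as known partners after their values were seen.

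The LINC complex, which couples the lamina to the cytoskeleton, had 4 of 8 genes detected, near the 39.4% of all genes, and a median of 3.84 FPKM. Sun1, an inner membrane protein that binds lamin A, was at 68.3 ± 1.22 FPKM and its paralog Sun2 at 6.98 ± 0.352 FPKM. Of the outer membrane nesprins, Syne4 was at 15.4 ± 0.774 and Syne2 at 12.6 ± 0.430 FPKM, and the germ cell gene Sun5 was listed at 0. All 7 genes of a further list, of inner nuclear membrane genes and genes related to them, were detected, where 39.4% of all genes were. Their median was 12.8 FPKM. Tor1aip2 led (65.3 ± 0.122), followed by Tmem43 (31.4 ± 0.303), Tor1a (24.6 ± 0.272) and Nemp1 (12.8 ± 0.981 FPKM). Tor1aip1, which encodes LAP1, was lowest at 4.83 ± 0.148 FPKM.

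**Figure D5:**
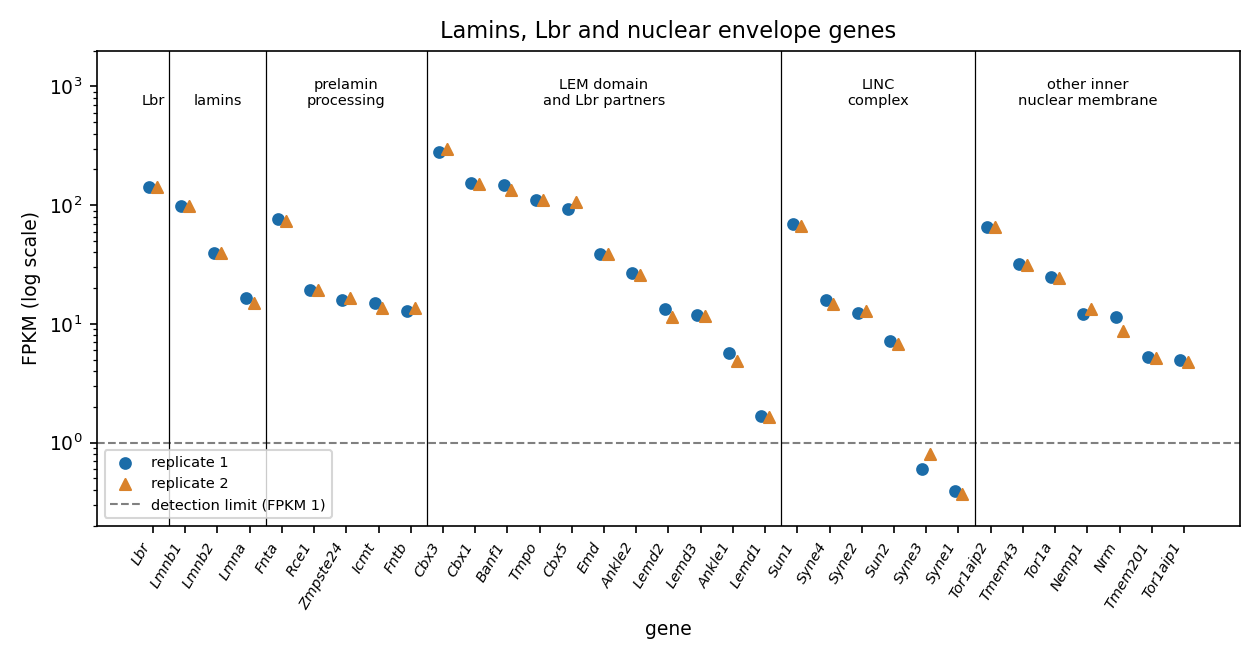
FPKM (log axis) of Lbr, the lamins and 4 lists of nuclear envelope genes, their partners and prelamin enzymes. Circles are replicate 1 and triangles replicate 2, with the detection limit dashed and genes at 0 in a replicate left out. Lbr at 142.9 FPKM stands near Cbx1, Lmnb1 at 97.8 FPKM near Cbx5 and Tmpo, and Lmna at 15.8 FPKM near the prelamin enzymes other than Fnta, which is at 74.6 FPKM.

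Lbr is also a sterol reductase of cholesterol synthesis, a step that Tm7sf2 can carry out as well. Tm7sf2 had 26.31 and 26.34 FPKM (26.3 ± 0.0197), below Lbr in both replicates. All 4 sterol genes examined beside Lbr were detected, where 39.4% of all genes were. Cyp51, the enzyme acting just before this step, was highest at 62.98 ± 0.927 FPKM. Dhcr7, which acts at the end of the pathway, was lowest at 7.05 ± 0.998 FPKM.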

How the data were processed

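The deposited table holds FPKM values that the authors made for each gene and replicate. The submitters' processing notes name CASAVA, TopHat2 and Cufflinks, with mm10 and GRCm38 as builds, and per the series' design text the analysis was at gene level. Versions, annotation, use of strand and the handling of reads that match several places are not stated. Columns were matched to samples by the description label. Read depth is unknown, since FPKM steps depend on lengths the table lacks. Low values were examined, but without lengths they give no read counts. A 0 can be a failed estimate and is given as listed at 0. Total RNA also holds unspliced transcripts, which can add to gene-level values.

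Stable identifiers gave symbols for 28256 genes. Spans and upstream windows came from RefSeq on GRCm38.p6. Of 173 listed names 171 were measured, and Krt85 and Eppk1 were not analysed here. The members and lists were chosen with earlier results of these data known. Named genes are the members and, of each list of related genes, those at a mean of at least 1 FPKM up to the 4 highest, and the lowest, with ties at 0 taken in list order; 1 gene that this rule names is not reported here. Marker genes and other names outside this rule were picked after their values were seen. Means, SDs and log2 ratios within a replicate were computed with Python 3.11.15, pandas 2.3.3 and numpy 2.4.6, with no pseudocount unless stated. No likeness of patterns across samples was measured, since there are 2 libraries of 1 group. The spread and motif steps were tested on simulated data. Alternatives were detection limits of 0.1 and 5 FPKM, pseudocounts of 1 and 0.1 FPKM, rescaling to TPM and leaving out each replicate.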

Additional observations from a re-analysis of the deposited data

How the results depend on the processing

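No paired analysis was possible because the series has 1 group. Of the 10 genes, 9 were detected with either replicate left out and after rescaling to TPM, and their order by level did not change under these 3 settings (0 genes out of place). Rescaling to TPM raised levels 1.06-fold in replicate 1 and 1.08-fold in replicate 2, and moved 9 of the 10 levels by more than their SD without changing the order. Each log2 ratio of replicate 2 to replicate 1 rose by 0.03, and after rescaling it was 0.03 for Lmnb1, Lmnb2 and Lbr. In the lists of related genes, a limit of 0.1 FPKM gave 8 of 28 type I and 2 of 25 type II keratins. It also gave 5 of 6 type IV genes and 1 of 2 beaded filament genes (0 at the limit of 1 FPKM). At 0.1 FPKM 52.9% of all genes passed. A limit of 5 FPKM gave 1 of 28 type I keratins and 1 of 4 type III genes. Of plakin and desmosome genes it gave 5 of 17, where 28.1% of all genes passed. Pseudocounts drew ratios of low genes towards 0. With 1 FPKM added, the log2 ratio of Krt8 to Krt18 was 2.42, of Krt7 to Krt8 -3.65, of Lmnb2 to Lmnb1 -1.28, of Lbr to Lmnb1 0.54 and of Nes to Vim -4.72. With 0.1 FPKM added, Krt8 to Krt18 gave 2.85 and Lmnb2 to Lmnb1 -1.30. The remaining counts and ratios stayed within 1.5-fold or 1 SD of the values given. For ratios with a replicate left out this was fixed in advance. With 2 replicates such a ratio always lies within 1 SD of the mean, so this setting could not show a change. Without one replicate the factor of Krt8 over Krt7 was 44.6 or 73.7. The low levels of Krt7, Krt18 and Krt19 limit what their ratios can show.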

Other observations

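Among the marker lists, a few genes differed between the replicates. The fibroblast marker Col3a1 stood at 0.0481 FPKM in replicate 1 and 0.809 FPKM in replicate 2, Dcn at 0 and 0.327 FPKM, and Acta2 at 0 and 0.429 FPKM. The endoderm marker Dab2 stood at 0.0426 and 0.406 FPKM. Among nuclear envelope genes, Nrm, which encodes nurim, had 11.5 FPKM in replicate 1 and 8.76 FPKM in replicate 2. These genes were picked after their values were seen.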
